A study of Mus musculus with 3 samples.

Results

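Basement membranes are thin sheets of secreted matrix on which epithelial cells rest. Laminin trimers, each of an alpha, a beta and a gamma chain, form one network on the cell surface, and type IV collagen forms a second one. Nidogen links both networks, and matricellular proteins such as SPARC and osteopontin bind matrix and cells without forming the sheet. In the early mouse embryo the primitive and parietal endoderm are rich sources of these proteins.

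Of the 29267 gene identifiers in the files, 9 genes of this kind were followed in single mouse embryonic stem cells, which are pluripotent cells from the blastocyst. They were chosen by name, with earlier results of these data known, so the values below are not independent of that choice. They are the laminin chains Lama1, Lama5, Lamb1 and Lamc1 and the type IV collagen chains Col4a1 and Col4a2. The others are the nidogen Nid1, Sparc, and Spp1, which encodes osteopontin. All 9 matched 1 identifier by symbol, and all passed the filter on low counts. Gene positions are those of GENCODE M21 on the mm10 (GRCm38) build of the mouse genome.

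All cells carried Mll1 alleles flanked by loxP sites (Mll1fl/fl) and Cre-ER TM, a Cre recombinase that an oestrogen receptor ligand activates, on a C57BL/6J background. Inhibited cells had MLL1, a histone H3 lysine 4 methyltransferase, inhibited; deleted cells were Mll1-/-; control cells were Mll1fl/fl. The labels give no inhibitor, dose, time of treatment, number of clones or deleted exons. Each of the 3 chips, called plates 1, 2 and 3, held all 3 kinds of cell, but the labels do not call the plates separate cultures. The p-values thus reflect plate-to-plate spread, part or all of which may be technical.

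After wells with under 1000 genes or at least 20% mitochondrial UMIs (unique molecular identifiers, each counting 1 captured transcript) were left out, 1590 inhibited, 1310 deleted and 1513 control wells remained, with a median of 32890, 34721 and 39644 UMIs. Summed per plate and cell type they gave 9 libraries of 25914860 to 43773924 UMIs. Of 3260 distinct well barcodes, 1040 occurred on more than 1 plate; no pair of wells with the same barcode held identical counts. The 12 pluripotency markers summed to 4770 to 5614 CPM (counts scaled to the same library total) in inhibited, 5326 to 6798 CPM after deletion and 6382 to 6603 CPM in control libraries. Most of that sum was Dppa5a, at 4248 CPM in inhibited, 5084 CPM after deletion and 5515 CPM in control libraries on average. For inhibited against control cells 4 of the 12 were above and 8 below 0, with a median log2 difference of -0.09, and 0 were called. Kmt2a, the gene for MLL1, averaged 43.6 ± 3.0 CPM in inhibited, 50.4 ± 11.4 CPM after deletion and 51.7 ± 2.6 CPM in control libraries (SD, n = 3), and since the labels name no deleted exon, its counts do not check the genotype. The 15 wells that received no cell had a median of 165 UMIs each and 2719 in all, among them 1 of Col4a1, 2 of Sparc, 2 of Spp1 and 0 of the other members.

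Some of the members' start regions are printed first, because the pair with the highest correlation across wells shares its start, and because Spp1 had the lowest correlations. Lama5 is shown beside Spp1 as the other member whose window holds no annotated exon. Of the 9 members, 7 had an entry in the RefSeq promoter table (GRCm38.p6); Lama1 and Lamc1 had none. Col4a1 (ENSMUSG00000031502; chromosome 8, 11198423 to 11312826, minus strand) and Col4a2 (ENSMUSG00000031503; chromosome 8, 11312805 to 11449287, plus strand) lie head to head, and their annotated first bases overlap by 22 bases at chr8:11312805-11312826. The stretch is given on both strands, with the GC box (GGGCGG, or CCGCCC on the opposite strand) in capitals.
Col4a2 strand: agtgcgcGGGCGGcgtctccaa
Col4a1 strand: ttggagacgCCGCCCgcgcact
The next sequences are the 250 bases before the annotated start of Spp1 (chr5:104434861-104435110, plus strand) and of Lama5 (chr2:180225860-180226109, minus strand), each read in the direction of its gene. Capitals mark exact matches, on either strand, to 3 motifs. The TATA box was searched as TATAAA. The box bound by NF-Y was searched as CCAAT. The GC box was searched as GGGCGG. No matches overlapped.
Spp1: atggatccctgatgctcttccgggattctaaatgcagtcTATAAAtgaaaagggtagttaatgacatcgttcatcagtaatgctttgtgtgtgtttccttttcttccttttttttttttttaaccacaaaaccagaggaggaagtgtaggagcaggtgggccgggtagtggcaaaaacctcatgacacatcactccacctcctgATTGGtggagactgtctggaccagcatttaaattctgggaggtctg
Lama5: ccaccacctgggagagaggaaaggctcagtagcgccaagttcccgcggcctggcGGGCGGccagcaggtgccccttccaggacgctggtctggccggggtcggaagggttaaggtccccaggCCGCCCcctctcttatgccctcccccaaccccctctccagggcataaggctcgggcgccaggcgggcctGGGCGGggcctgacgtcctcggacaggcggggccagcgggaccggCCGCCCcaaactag
The Spp1 window held 43.6% G and C and 3 CpG dinucleotides, with 1 TATAAA match starting at position -211 and 1 CCAAT match on the opposite strand at -46. The Lama5 window held 72.4% G and C, 19 CpG dinucleotides and 4 GC boxes, and none of the other motifs. Over all 32851 windows in the table the median was 52.4% G and C and 6 CpG dinucleotides, and 12.4% held a TATAAA, 33.8% a CCAAT and 32.7% a GC box match. A match describes the letters and is not evidence of binding.

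Per kilobase of exon, Spp1 and Sparc stood far above the other members. Averaged over the 3 cell types, Spp1 had 176 and Sparc 97.3 CPM per kilobase, against 5.43 for Col4a1, 4.27 for Lama5, 3.19 for Lamc1, 3.07 for Lamb1, 2.36 for Col4a2, 1.37 for Nid1 and 1.09 for Lama1. The sources used here do not give which part of a transcript the UMIs count; if only one end was counted, length would not enter and Sparc, at 339 to 408 CPM on average, would lead Spp1, at 269 to 331 CPM. Single libraries ranged from 3.12 to 10.3 CPM per kilobase for Col4a1, from 1.14 to 3.79 for Col4a2 and from 0.531 to 2.56 for Nid1. The ranges of neighbours in this order, from Col4a1 down to Lama1, all overlapped. In summed libraries, fewer cells with a transcript and fewer transcripts per cell cannot be told apart.

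The laminin chains were tested first. No chain passed edgeR's threshold of 0.05 after Benjamini-Hochberg (BH) adjustment over 17119 genes in any of the 3 comparisons. Lama1 (ENSMUSG00000032796; chromosome 17, 67697259 to 67822647), the alpha chain of early embryonic laminin, had 8.83, 13.4 and 11.8 CPM on plates 1, 2 and 3 in inhibited cells, 6.23, 8.44 and 7.01 CPM after deletion and 16.6, 15.5 and 7.25 CPM in control cells. Inhibited cells lay above deleted cells without overlap, while the control value on plate 3 lay within the range of deleted cells. The log2 difference was 0.65 ± 0.29 (SE) for inhibited against deleted cells (edgeR adjusted p = 0.365), and -0.83 ± 0.30 for deleted against control cells (adjusted p = 0.376; -0.49 without plate 1). Inhibited against control cells differed by -0.18 ± 0.29, with plate values on both sides of 0. On control plate 1 a single well held 311 of the 740 Lama1 UMIs, or 42.0%.

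Lama5 (ENSMUSG00000015647; chromosome 2, 180176373 to 180225859), the alpha chain of most epithelial basement membranes, had 49.6, 34.6 and 55.2 CPM in inhibited, 49.3, 39.3 and 67.5 CPM after deletion and 53.2, 40.5 and 48.1 CPM in control cells. Lamb1 (ENSMUSG00000002900; chromosome 12, 31265234 to 31329644), the shared beta chain, had 28.7, 25.8 and 30.5 CPM in inhibited, 26.2, 29.0 and 37.6 CPM after deletion and 32.5, 36.0 and 27.4 CPM in control cells. For both genes the 3 groups overlapped, and the log2 differences ran between -0.18 and 0.11 with standard errors of 0.13 to 0.17. Lamc1 (ENSMUSG00000026478; chromosome 1, 153218922 to 153332786), the shared gamma chain, had 21.1, 20.8 and 27.6 CPM in inhibited, 30.9, 28.1 and 34.8 CPM after deletion and 29.3, 22.6 and 22.2 CPM in control cells. Every inhibited library lay below every deleted one, with a log2 difference of -0.43 ± 0.16 (edgeR adjusted p = 0.279).

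Among the collagen and nidogen genes, inhibited and deleted cells stood furthest apart, and control cells varied most between plates. Col4a1, the chain that joins with Col4a2 into the main type IV collagen trimer, had 29.6, 23.3 and 24.5 CPM in inhibited, 46.5, 45.8 and 62.9 CPM after deletion and 76.6, 31.1 and 24.8 CPM in control cells. Control plate 1 was thus the highest and control plate 3 close to the inhibited libraries. Col4a2 had 11.1, 7.52 and 12.3 CPM in inhibited, 15.6, 23.0 and 25.1 CPM after deletion and 22.8, 13.7 and 9.36 CPM in control cells. Nid1 (ENSMUSG00000005397; chromosome 13, 13437551 to 13512269), which encodes the linker nidogen, had 5.85, 3.69 and 5.12 CPM in inhibited, 9.06, 11.9 and 17.7 CPM after deletion and 10.7, 3.92 and 17.3 CPM in control cells. In all 3 genes the inhibited range lay below the deleted range in these full-depth sums, and the control range overlapped both.

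Inhibited against deleted cells differed by -1.04 ± 0.30 (log2, SE) for Col4a1, -1.07 ± 0.33 for Col4a2 and -1.40 ± 0.37 for Nid1, or 0.486, 0.477 and 0.380 times the level in deleted cells. Their edgeR adjusted p-values were 0.169, 0.193 and 0.141, so none passed the threshold. At full depth each was lower in inhibited cells on 3 of 3 plates. Leaving out 1 plate kept the differences between -1.19 and -0.83 for Col4a1, -1.29 and -0.81 for Col4a2, and -1.76 and -1.20 for Nid1. With wells thinned to equal depth the differences were -0.63, -0.43 and -1.14. Col4a2 was then higher in inhibited than in deleted cells on plate 3, at 19.0 against 13.5 CPM, and its 2 ranges overlapped. Col4a1 and Nid1 stayed lower in inhibited cells on each plate. Against control cells, deleted cells differed by 0.36 ± 0.30 for Col4a1, 0.51 ± 0.33 for Col4a2 and 0.43 ± 0.36 for Nid1, all with plates on both sides of 0, and at equal depth the Col4a2 value was 0.08. Inhibited against control cells gave -0.68 ± 0.30 for Col4a1, -0.56 ± 0.33 for Col4a2 and -0.96 ± 0.36 for Nid1 (edgeR adjusted p = 0.542, 0.673 and 0.470); without plate 1 the Col4a1 value was -0.24 and the Col4a2 value -0.24, and without plate 3 the Nid1 value was -0.55.

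**Figure D1:**
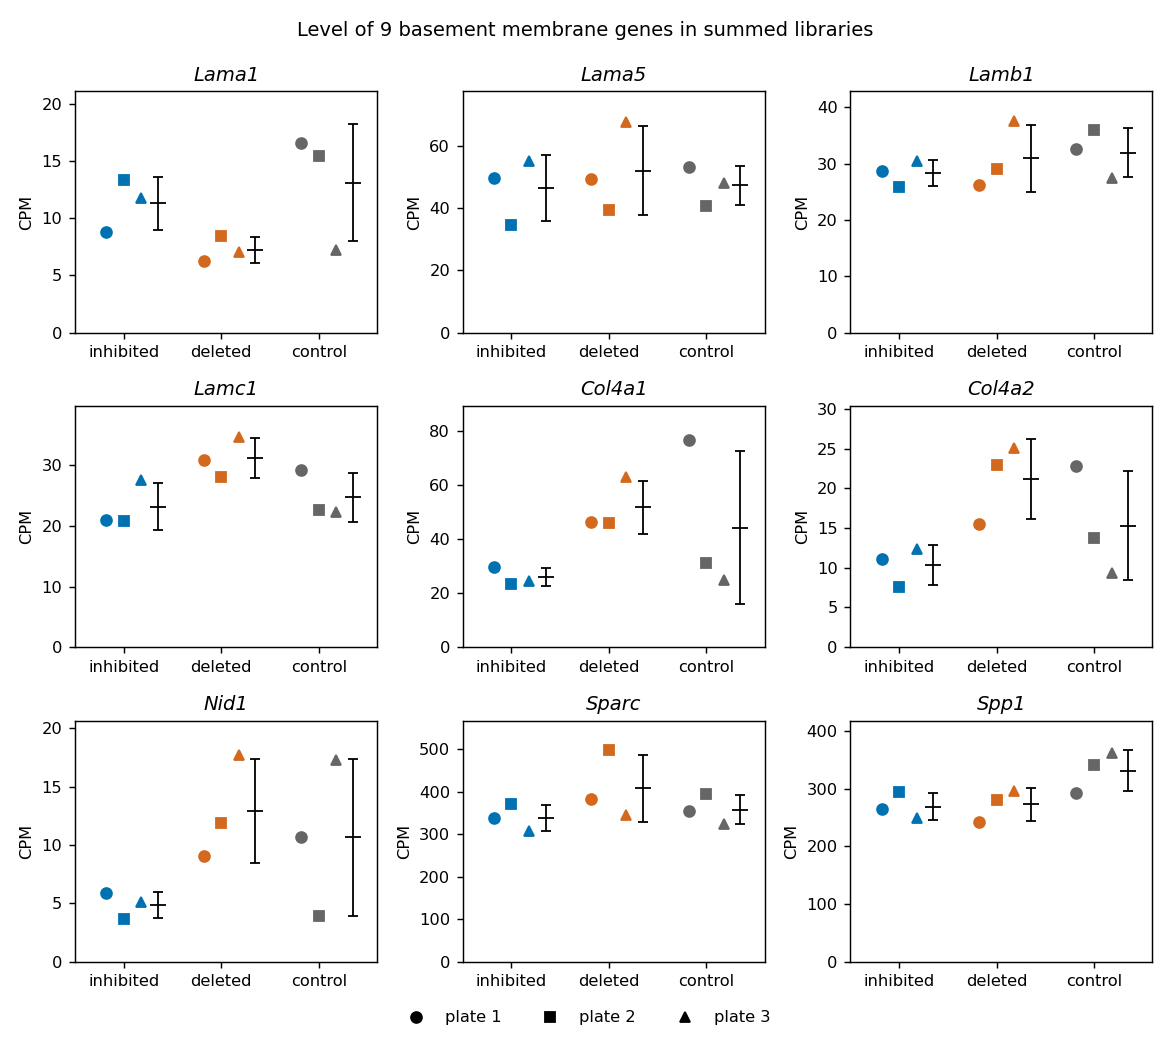
CPM (linear axis from 0) of each member in inhibited, deleted and control cells; each point is 1 plate, and the bar beside it gives the mean ± SD over 3 plates. Inhibited points lie below deleted points for Col4a1, Col4a2, Nid1 and Lamc1 and above them for Lama1, while Lama5 and Lamb1 overlap throughout.

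The matricellular genes were measured with the most UMIs, 7167 to 19261 per library. Sparc (ENSMUSG00000018593; chromosome 11, 55394500 to 55423183), which encodes a collagen-binding glycoprotein, had 337, 371 and 309 CPM in inhibited, 382, 497 and 346 CPM after deletion and 356, 394 and 325 CPM in control cells. On each plate the order in these full-depth sums was deleted, control, inhibited from high to low, although the ranges overlapped. With wells thinned to equal depth this order held on plate 2 only. There, inhibited cells had 318.2, 350.3 and 311.7 CPM on plates 1, 2 and 3. Deleted cells had 318.5, 461.4 and 321.1 CPM, and control cells 341.7, 378.2 and 306.9 CPM. At full depth, inhibited against deleted cells differed by -0.26 ± 0.07 (log2, SE; edgeR adjusted p = 0.157), inhibited against control cells by -0.08 ± 0.07 and deleted against control cells by 0.18 ± 0.07 (adjusted p = 0.425; 0.10 without plate 2). Leaving out plate 2 also gave -0.17 for inhibited against deleted cells.

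Spp1 (ENSMUSG00000029304; chromosome 5, 104435118 to 104441050), which encodes a secreted ligand of integrins, had 264, 293 and 249 CPM in inhibited, 241, 281 and 296 CPM after deletion and 292, 341 and 361 CPM in control cells. Both inhibited and deleted cells were below control cells on every plate, while the ranges overlapped by the control value of plate 1. The log2 difference was -0.30 ± 0.08 (SE) for inhibited cells (edgeR adjusted p = 0.365; -0.18 without plate 3) and -0.28 ± 0.08 for deleted cells (adjusted p = 0.298). These 2 comparisons share the control libraries. Inhibited against deleted cells gave -0.02 ± 0.08. Strand use is not known, and several members overlap other annotated genes. The overlaps on the opposite strand span 18707 bases for Col4a2 (with Gm15419), 8063 for Nid1 (Gm48682), 6081 for Col4a1 (Gm15418) and 1047 for Lamc1 (Gm8818). Those on the same strand span 3341 bases for Lamc1 (Gm38009), 1252 for Spp1 (Gm42793), 710 for Col4a1 (Gm44716) and 69 for Lama5 (Mir7005). These are overlaps of whole annotated genes, introns included, and the overlap of exons was not measured. Reads there may be split, and how far this touches the members' counts is not known.

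Counted over the 9 members, 0 passed edgeR's adjusted threshold in each comparison. Of all 17119 genes, 0.00584% passed for inhibited against control, 0.035% for deleted against control and 0.31% for inhibited against deleted cells. At an unadjusted p under 0.05, 3 members passed for inhibited against control cells (Nid1, Spp1 and Col4a1, all lower), where 9.0% of all genes did, 4.23% lower and 4.77% higher. For deleted against control cells 3 passed (Sparc higher, Spp1 and Lama1 lower), where 10.3% did, 5.22% lower and 5.11% higher. For inhibited against deleted cells 6 passed (Nid1, Sparc, Lamc1, Col4a1 and Col4a2 lower, Lama1 higher), where 13.7% did, 6.68% lower and 6.98% higher. DESeq2 called 1 member (Spp1) for inhibited against control, where it called 1.62% of all genes, 0 for deleted against control, where it called 1.95%, and 3 (Nid1, Col4a2 and Sparc) for inhibited against deleted cells, where it called 4.29%. Ranges did not overlap for 4 lower members and 1 higher member between inhibited and deleted cells, where 6.38% of all genes were lower and 5.39% higher without overlap. In inhibited against control cells 0 members had ranges apart, where 6.23% of genes were lower and 5.02% higher, and in deleted against control cells also 0, where 5.52% were lower and 5.44% higher. The members' median log2 difference was -0.18 for inhibited against control, 0.18 for deleted against control and -0.26 for inhibited against deleted cells, each beside 0.00 over all genes tested.

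**Figure D2:**
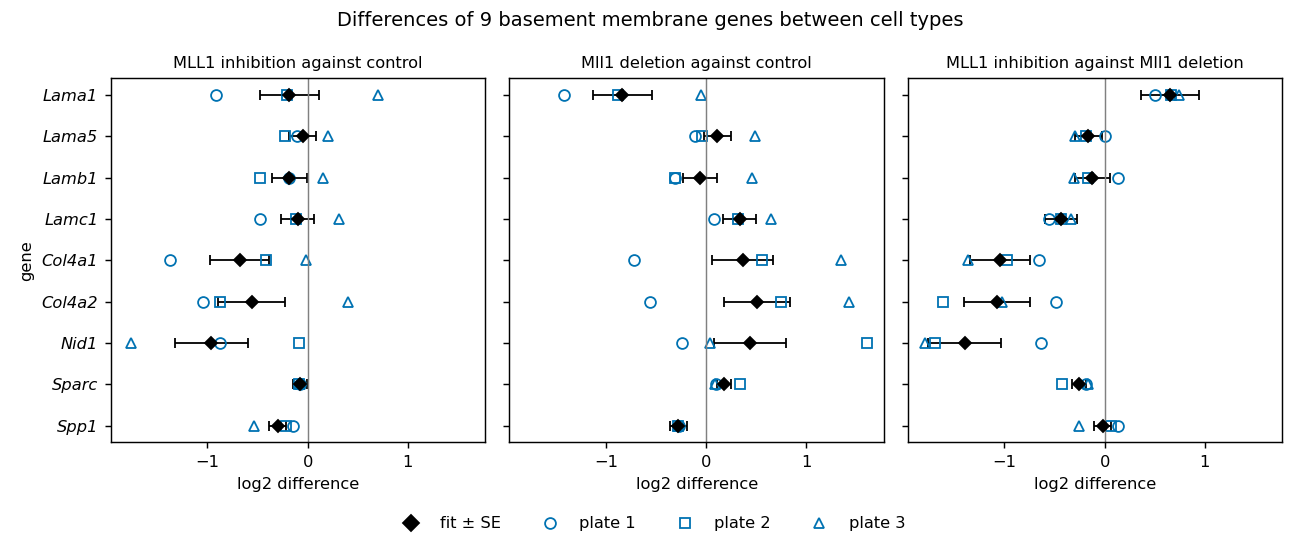
Log2 difference of each member in the 3 comparisons; filled diamonds are edgeR estimates with their SE, open symbols are the log2 ratios of CPM on each plate. For inhibited against deleted cells the Col4a1, Col4a2 and Nid1 estimates lie between -1.40 and -1.04 with all plates below 0, and Lama1 lies at 0.65 with all plates above 0.

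Levels in summed libraries were next set beside the share of wells in which a member was found, at the same 5869 UMIs in each of 3971 wells (1414 inhibited, 1147 deleted, 1410 control; 442 wells were shallower). Sparc was found in 67.1% of these wells (exact 95% interval 65.7 to 68.6) and Spp1 in 56.4%. The others were found in a minority: Lama5 in 20.9%, Lamc1 in 11.3%, Lamb1 in 11.1%, Col4a1 in 10.0%, Col4a2 in 5.24%, Lama1 in 4.23% and Nid1 in 2.97%. At full depth the share was 86.0% for Sparc, 78.8% for Spp1, 55.9% for Lama5 and 9.36% for Nid1. Intervals cover counting error only.

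Spp1 was found less often in both inhibited and deleted than in control wells on all 3 plates. It was found in 52.2, 55.0 and 54.7% of inhibited, 54.3, 48.2 and 57.4% of deleted, and 57.9, 61.5 and 66.3% of control wells, so that each inhibited and deleted plate lay below the lowest control plate. The mean within-plate difference was -7.90 points ± 3.24 (SD, n = 3) for inhibited and -8.61 ± 4.86 for deleted cells, each with p = 0.25 in an exact two-sided sign permutation test, the smallest that 3 plates allow (adjusted p = 0.519 over 27 tests). Sparc was found in 64.5, 64.7 and 64.5% of inhibited, 68.2, 72.9 and 64.4% of deleted, and 66.8, 69.9 and 71.2% of control wells. Inhibited wells were lower than control wells on every plate, by 4.75 points ± 2.21 on average, with the same smallest p of 0.25 (exact permutation).

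Over the members, 5 were found less often in inhibited than in control wells on all 3 plates (Lamb1, Lamc1, Nid1, Sparc and Spp1) and 0 more often. Of the 9762 genes found often enough to compare, 31.6% were lower and 6.05% higher in this way. In deleted against control wells 3 were lower (Lama1, Lamb1 and Spp1; 23.3% of genes) and 2 higher (Col4a1 and Nid1; 9.85% of genes). In inhibited against deleted wells 3 were lower (Lamc1, Col4a2 and Nid1; 20.7% of genes) and 0 higher (12.3%). The Lamb1 direction after deletion did not hold at another depth: the mean difference was -2.21 points at 5869 UMIs and 0.52 points at 12724 UMIs. Nid1 was found in 1.22, 1.79 and 2.84% of inhibited, 3.48, 5.72 and 3.85% of deleted, and 3.45, 2.5 and 2.88% of control wells, and its intervals overlapped between cell types on each plate except plate 2, where inhibited wells (0.823 to 3.38%) lay below deleted wells (3.48 to 8.79%).

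**Figure D3:**
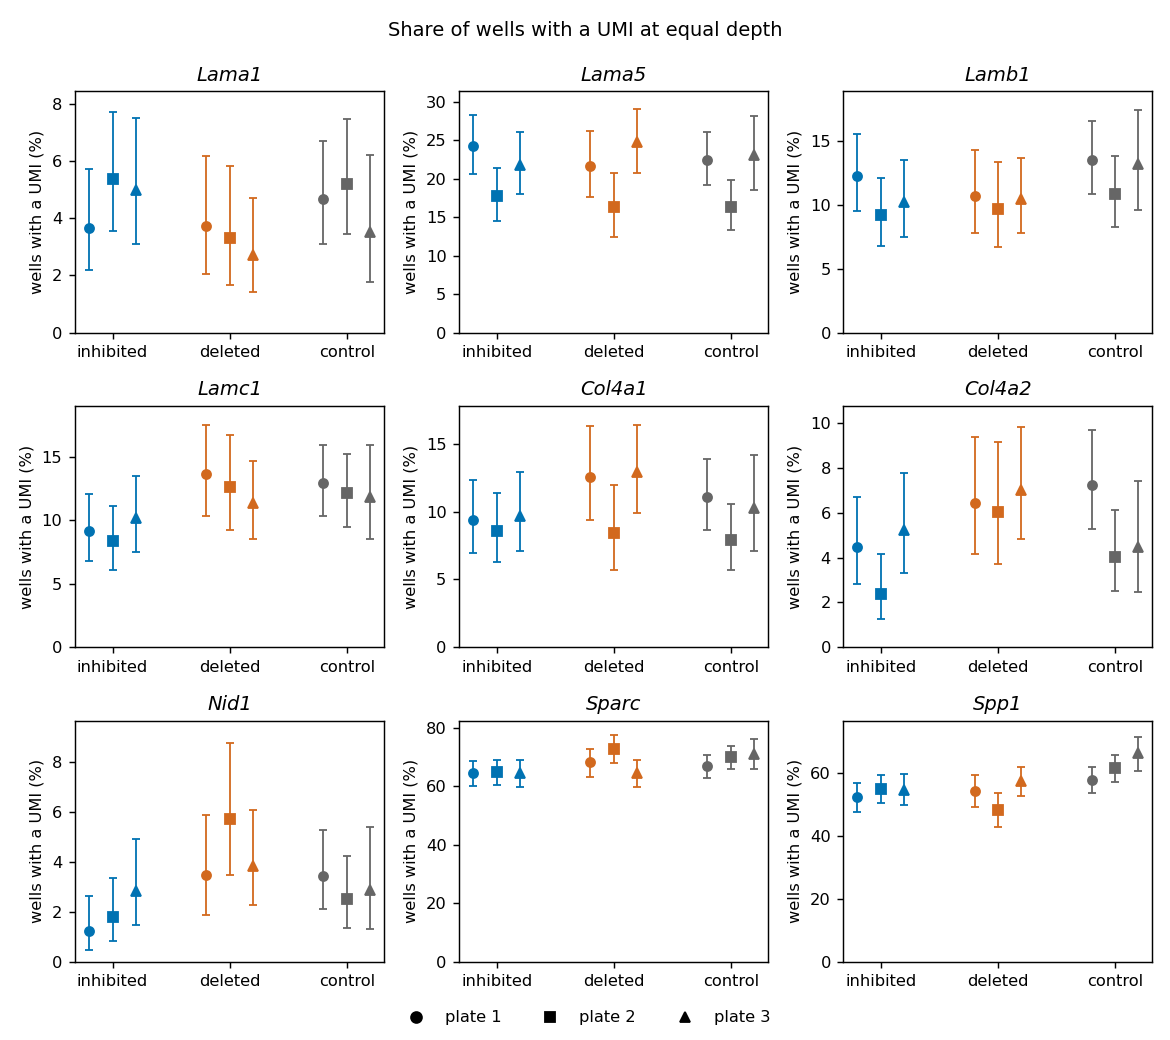
Percent of wells with at least 1 UMI of each member after thinning to 5869 UMIs per well, in inhibited, deleted and control cells; points are plates, bars exact 95% binomial intervals. Spp1 points of inhibited and deleted cells lie between 48.2 and 57.4%, below the control points at 57.9 to 66.3%.

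A well at equal depth held 1.80 ± 0.06 members in inhibited, 1.91 ± 0.07 in deleted and 1.99 ± 0.08 in control cells (mean ± SD over 3 plates). The difference of inhibited from control cells was -0.188, -0.173 and -0.226 members on plates 1, 2 and 3, and deleted cells lay between them on each plate (exact permutation p = 0.25 for each comparison, the smallest possible). Of the 9762 genes compared above, 31.6% were found less often in inhibited than in control wells on all 3 plates, and 6.05% more often. For deleted against control wells the shares were 23.3 and 9.85%. The differences per well are thus not shown to be particular to the members. Over all wells, 7.43% held none of the 9 members, 29.8% held 1, 38.4% held 2, 17.5% held 3 and 4.94% held 4. At least 5 members were found in 76 wells (1.91%), 3 wells held 8, and 0 held all 9.

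Within wells, the 2 collagen chains had the highest correlation of all pairs of members. Across wells of the same plate and cell type, the Pearson r of log2(count + 1) for Col4a1 and Col4a2 was 0.32, 0.33 and 0.24 in inhibited, 0.49, 0.41 and 0.17 in deleted, and 0.46, 0.52 and 0.18 in control cells, with 312 to 579 wells per set. The mean over the 9 sets was 0.35, the highest of 36 pairs. Col4a1 was found in 37.5% of the 208 wells with a Col4a2 UMI (exact 95% interval 30.9 to 44.5) and in 8.53% of the wells without one (7.66 to 9.47), and the share was higher with Col4a2 in 9 of 9 sets. The overlap of the annotated starts printed above spans 22 bases, and the sources used here do not say whether counting used the strand, so reads there cannot be assigned to either gene. All correlations share the depth of the wells and the libraries, and are given as descriptions.

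Of the 36 pairs, 29 had a mean r above 0 and 6 were above 0 in each of the 9 sets. These 6 were Col4a1 with Col4a2, Sparc, Lama5 and Lamc1, and Sparc with Col4a2 and Lama5. Col4a1 was the closest partner of 7 of the other 8 members, with mean r of 0.17 for Sparc, 0.16 for Lamb1, 0.11 for Lama5, 0.10 for Lamc1, 0.10 for Nid1 and 0.08 for Lama1. Of the laminin chains that form trimers, Lamb1 and Lamc1 had a mean r of 0.07, and both were found in 70 wells at equal depth (1.76%) and in 607 (13.8%) at full depth. Lamb1 was found in 15.6% of wells with Lamc1 (exact 95% interval 12.4 to 19.3) and in 10.6% of wells without it (9.56 to 11.6), higher with Lamc1 in 8 of 9 sets. Lama5, Lamb1 and Lamc1 were all found in 27 wells at equal depth and in 459 of 4413 wells (10.4%) at full depth. Lama1, Lamb1 and Lamc1 were all found in 5 wells at equal depth and in 122 (2.76%) at full depth. Since each chain was found in few wells, a chain without a UMI is not shown to be absent.

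Spp1 had the lowest correlations with the other members. It was the least alike partner of 6 of them, and its mean r was -0.07 with Col4a2, -0.06 with Sparc, -0.06 with Col4a1, -0.05 with Lamb1 and -0.05 with Lama5; with Col4a2 and with Sparc it was below 0 in 9 of 9 sets. Spp1 was found in 40.4% of wells with Col4a2 (33.7 to 47.4) and in 57.3% of wells without it (55.7 to 58.9), with the higher share beside Col4a2 in 1 of 9 sets. With Lama1 the order was the opposite: 67.9% of wells with Lama1 (60.2 to 74.8) and 55.9% of wells without it (54.3 to 57.5) held Spp1, in 9 of 9 sets. These r values are small.

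**Figure D4:**
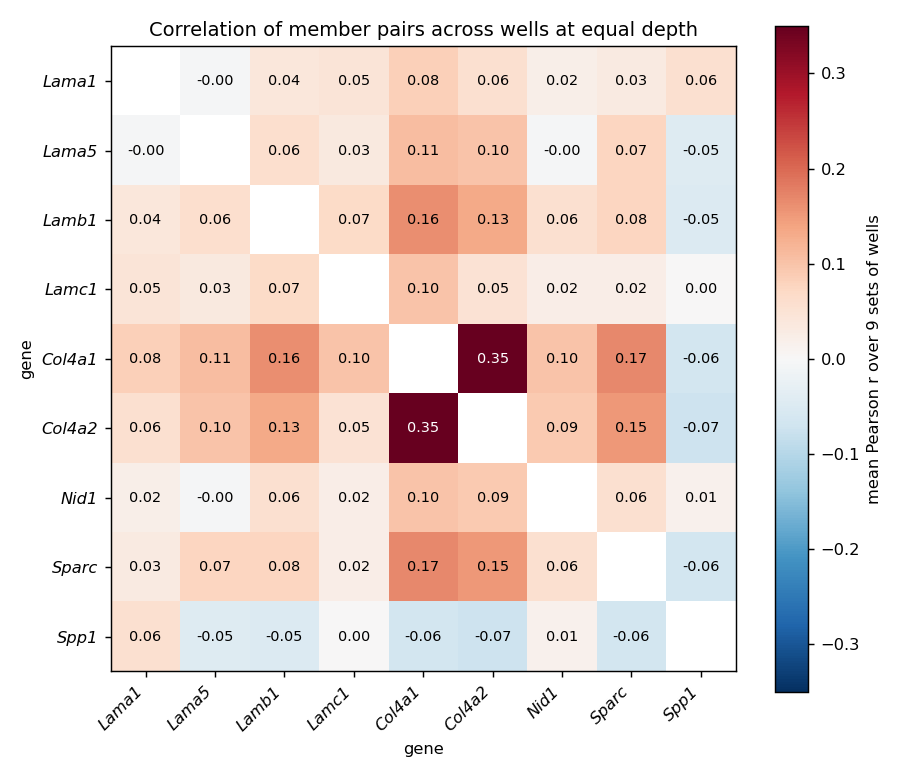
Mean Pearson r over 9 sets of wells (3 plates by 3 cell types) of log2(count + 1) at equal depth for the 36 pairs of members; red is above 0, blue below. Col4a1 and Col4a2 stand out at 0.35, and the Spp1 row is below 0 with Lama5, Lamb1, Col4a1, Col4a2 and Sparc.

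The UMIs of most members came from a small share of the wells. This measure depends on the level, since a gene with few UMIs is found in few wells by sampling alone, and no comparison at matched levels was made. The 5% of wells with the most UMIs of a gene held 82.0 to 97.4% of the Nid1, 82.4 to 93.3% of the Lama1, 78.6 to 91.8% of the Col4a2 and 71.9 to 89.0% of the Col4a1 UMIs across the 9 libraries at full depth. They held 30.9 to 49.5% of the Sparc and 38.6 to 49.8% of the Spp1 UMIs. Full depth includes the differences in depth between wells: at equal depth the shares were 19.6 to 26.2% for Sparc, 25.2 to 34.3% for Spp1, 68.0 to 88.0% for Col4a1 and 92.6 to 100.0% for Nid1. The single richest well held up to 42.0% of a library's Lama1, 31.9% of its Col4a2, 29.5% of its Nid1 and 23.7% of its Col4a1 UMIs. On control plate 1, where Col4a1 was highest, 1 well held 752 of its 3407 UMIs (22.1%). At equal depth the variance of the UMI count over its mean was 7.22 for Col4a1, 4.69 for Col4a2, 4.37 for Lama1, 3.80 for Spp1, 3.24 for Sparc, 2.64 for Lamb1, 2.51 for Lama5, 2.15 for Nid1 and 2.06 for Lamc1, and 1 well held 38 Col4a1 UMIs. The order of the members by this ratio was not that by the share in the top wells, with Nid1 low in one and high in the other. At equal depth, though, Nid1 was found in under 5% of wells in each library except deleted plate 2. A gene found so rarely has 100.0% of its UMIs in the top 5% of wells by construction, so for Nid1 the 2 orders cannot be compared. The ratio was taken over the wells of all cell types together. Each cell type was dispensed from 2 or 3 source wells per plate, and levels differed between source wells of the same plate and cell type. The largest fold differences were 9.15 (Lama1), 4.48 (Col4a2), 3.87 (Col4a1), 3.60 (Nid1), 3.39 (Lamb1), 3.26 (Lamc1), 1.75 (Lama5), 1.68 (Spp1) and 1.54 (Sparc). On deleted plate 3, source well B2 had 53.3 CPM of Col4a2, scaled to its own UMIs, against 11.9 in A2 and 14.3 in C2. For Lamc1 it had 63.5 CPM, against 19.5 and 28.3. In that library 1 well held 307 of the 962 Col4a2 UMIs. How far the higher deleted sums rest on this source well was not tested.

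**Figure D5:**
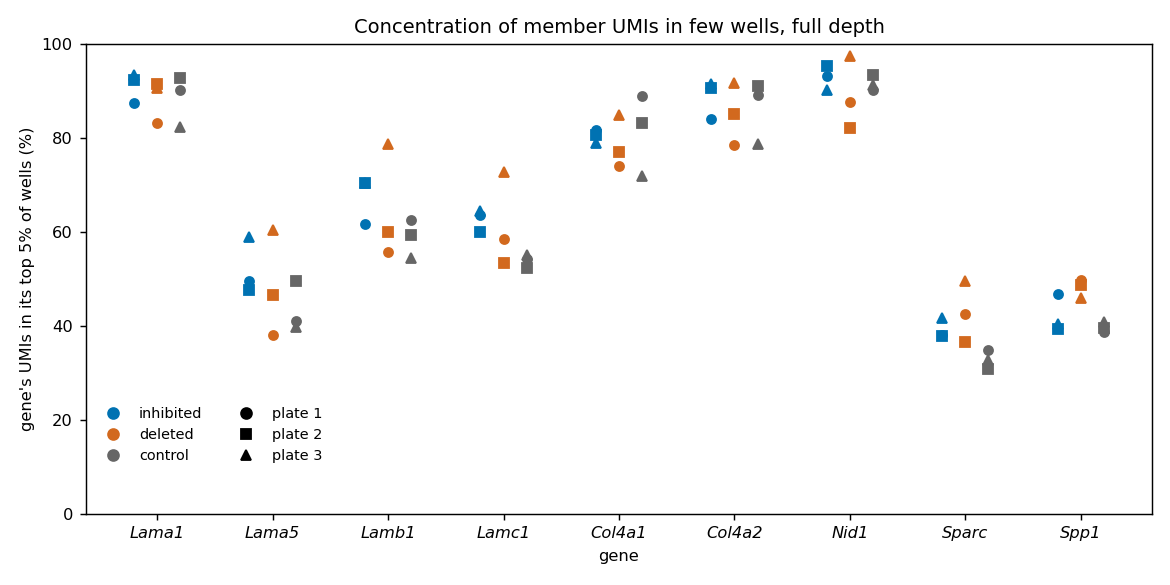
Percent of a member's UMIs held by the 5% of wells with the most of it, at full depth, in each of the 9 libraries (colour, cell type; symbol, plate). Genes with fewer UMIs are expected higher on this axis from sampling alone. Lama1, Nid1, Col4a2 and Col4a1 lie between 71.9 and 97.4%, Sparc and Spp1 between 30.9 and 49.8%.

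The genes most like the members across wells were led by Krt8, Cryab and Krt18. Ranked by mean r with the members' mean log2(count + 1), over 9 sets and 9753 genes, the first 10 were Krt8 (0.21) and Krt18 (0.21), the keratins of simple epithelia, the small heat shock gene Cryab (0.21), the fatty acid carrier Fabp3 (0.19), the membrane-binding annexin Anxa2 (0.18), Ahnak (0.18), Phldb2 (0.17), the matricellular gene Thbs1 (0.17), the pseudogene Fabp3-ps1 (0.17) and the actin-binding gene Tagln (0.17). All 10 were above 0 in 9 of 9 sets, and the 99th percentile over all ranked genes was 0.10. Counts of Fabp3 and its pseudogene may be split between them. Outside the members, the nearest gene was Krt8 for Col4a1 (0.28) and Col4a2 (0.23), Cryab for Sparc (0.23) and Krt18 for Lama5 (0.12). It was Anxa5 for Nid1 (0.14), Ktn1 for Lamb1 (0.11), P4ha2 for Lama1 (0.10) and Wnk1 for Lamc1 (0.08). Nearest to Spp1 were Chchd10 (0.17), the pluripotency-associated Dppa5a (0.16) and Nr0b1 (0.15). Neighbours outside the first 10 were thus not particular to Spp1.

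The 76 wells with at least 5 members were described by other genes, with no test. They came unevenly from the plates 1, 2 and 3: 4, 4 and 8 inhibited, 9, 6 and 10 deleted, and 18, 11 and 6 control wells. The shares of the 76 and of the other wells are pooled over cell types and plates. Some of these markers differ between cell types, so the contrasts are not those of the members alone. Krt8 was found in 67.1% of them and 35.8% of the other wells, Krt18 in 86.8 and 57.6%, Thbs1 in 35.5 and 9.73%, and Tinagl1, another basement membrane gene, in 19.7 and 5.03%. Of the 20 other basement membrane components 11 were found more often in the 76 wells and 7 were at 0 there. Of the collagen-processing genes, the collagen chaperone Serpinh1 was found in 26.3 and 11.8%, and the prolyl hydroxylase P4ha2 in 11.8 and 2.41%, and 14 of the 16 were found more often in the 76 wells. Sox2 was found in 23.7% of them and 41.5% of the others, Pou5f1 in 17.1 and 28.5%, and Utf1 in 10.5 and 20.2%. Of the 12 pluripotency markers 5 were found more often in the 76 wells: Esrrb in 18.4 and 13.2%, Klf4 in 15.8 and 10.3%, Tfcp2l1 in 25.0 and 17.5%, Nanog in 9.21 and 7.09%, and Dppa5a in 97.4 and 97.2%. The wells had a median of 41043 UMIs before thinning and 4.27% mitochondrial UMIs, against 43802 UMIs and 3.39% in the others.

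Markers of cells that make basement membrane were set beside these values. Of the 20 primitive and parietal endoderm markers in the files, Lrp2 was found in 48.7% of the wells with 5 or more members and 26.5% of the others, and Dab2 in 9.21 and 2.75%. Over the 20 markers, 13 were found more often in these 76 wells, 6 were at 0 there (Gata6, Cubn, Amn, Hnf4a, Thbd and Afp), and Apoe was found in 90.8 and 96.6%. A count of 0 in 76 wells allows a share of up to 3.95% at this depth. Regulators on the list were rarely found: Gata4 in 3.95 and 0.462%, Sox17 in 2.63 and 0.282%, and Gata6 in 0 and 0.513%. Foxa2 was found in 2.63 and 0.257%, and Sox7 in 1.32 and 0.899%. Except for Gata6 these shares were higher in the 76 wells, but each rests on very few of them. Gata4, Sox17 and Gata6 averaged 1.35, 0.51 and 0.99 CPM over the libraries. The 12 fibroblast and feeder markers summed to 16.1 to 17.6 CPM in inhibited, 23.0 to 27.6 CPM after deletion and 7.33 to 17.0 CPM in control libraries. Of that, Acta2 alone averaged 4.76 CPM in inhibited, 13.1 CPM after deletion and 3.81 CPM in control libraries. Over all libraries S100a4 averaged 6.91 CPM and Col1a1 0.254 CPM. In the 76 wells 4 of the 12 were found more often than in the others: Acta2 in 5.26 and 1.62%, Dcn in 2.63 and 0.308%, Col3a1 in 1.32 and 0.103%, and Col5a1 in 1.32 and 0.693%. Another 7 were at 0 there, Col1a1, Col1a2, Col6a1, Thy1, Lum, Postn and Pdgfrb, none of which passed 0.411% in the other wells. All 8 endothelial and blood markers were also at 0. Of the 8 trophectoderm markers, 5 were found more often in the 76 wells and 1 was at 0.

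The related lists were tested with the same edgeR fit. Of 15 other basement membrane components tested, 0 were called in any comparison; their median log2 difference was -0.11 for inhibited against deleted cells, -0.10 for inhibited against control and 0.27 for deleted against control cells. The smallest p among them belonged to Tinagl1, at 9.83 ± 1.25 CPM in inhibited, 22.6 ± 5.50 CPM after deletion and 11.9 ± 2.49 CPM in control cells (SD, n = 3), with -1.17 ± 0.22 for inhibited against deleted cells (edgeR adjusted p = 0.0717). The next was Lamb2, another laminin beta chain (-0.57 ± 0.25, adjusted p = 0.359). Of 16 collagen and laminin processing genes 0 were called. P4ha2 averaged 6.44 ± 2.33 CPM in inhibited, 9.64 ± 0.98 CPM after deletion and 4.70 ± 0.40 CPM in control cells, with 1.01 ± 0.29 for deleted against control (adjusted p = 0.284). The crosslinking enzyme gene Lox averaged 0.16 ± 0.17 CPM in inhibited, 1.68 ± 0.86 CPM after deletion and 0.38 ± 0.28 CPM in control cells. It gave -3.88 ± 1.04 for inhibited against deleted cells (edgeR adjusted p = 0.150), on only 249 UMIs in all libraries.

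Of 14 receptors tested 0 were called. The integrin chain Itga6, which forms laminin receptors, averaged 30.7 ± 3.40 CPM in inhibited, 45.3 ± 4.92 CPM after deletion and 41.9 ± 6.62 CPM in control cells, with -0.56 ± 0.14 for inhibited against deleted (edgeR adjusted p = 0.128). Itgav, a chain of osteopontin-binding integrins, averaged 15.1 ± 4.85 CPM in inhibited, 23.4 ± 7.40 CPM after deletion and 22.0 ± 2.90 CPM in control cells, with -0.63 ± 0.18 for inhibited against deleted (adjusted p = 0.161). Of 9 other matricellular and secreted genes 0 were called; for deleted against control cells Ccn1 gave 0.51 ± 0.13 (edgeR adjusted p = 0.233) and Thbs1 0.62 ± 0.19 (adjusted p = 0.298).

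Of the marker lists, only that of primitive and parietal endoderm held called genes, among 18 tested. They were Krt18 and Krt8, keratins of simple epithelia, so the calls are not particular to endoderm. Krt18 averaged 569 ± 149 CPM in inhibited, 1027 ± 287 CPM after deletion and 592 ± 61.1 CPM in control cells, and fell by 0.85 ± 0.11 on the log2 scale in inhibited against deleted cells (edgeR adjusted p = 0.0185). Krt8 averaged 154 ± 47.2 CPM in inhibited, 282 ± 60.5 CPM after deletion and 178 ± 27.2 CPM in control cells, and fell by 0.89 ± 0.14 in inhibited against deleted cells (adjusted p = 0.0318). Both were lower on 3 of 3 plates. In this comparison at full depth, members Lamc1, Col4a1, Col4a2, Nid1 and Sparc were lower on 3 of 3 plates, as were 15.7% of genes. Lama1 was higher on 3 of 3, as were 17.5%. The list summed to 1773 to 2354 CPM in inhibited, 2210 to 2990 CPM after deletion and 1993 to 2283 CPM in control libraries, of which Apoe, Krt18 and Krt8 made up most. The median mitochondrial share of a well was 3.24 to 3.48% on inhibited, 3.81 to 4.16% on deleted and 3.06 to 3.18% on control plates. The part of these genes, of such cells or of the mitochondrial share in the members' differences was not tested. Of the pluripotency, fibroblast, trophectoderm and endothelial lists 0 genes were called, the smallest p in each belonging to Dppa5a and Tdgf1, Acta2 and Dcn, Krt7 and Tfap2c, and Pecam1 and Tek. The 8 trophectoderm markers summed to 70.7 to 74.0 CPM in inhibited, 84.4 to 106 after deletion and 62.4 to 64.2 CPM in control libraries. Of the 7 tested, 7 lay above 0 for deleted against control, 4 for inhibited against control and 2 for inhibited against deleted cells.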

How the data were processed

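RNA of single cells on 3 plates was copied, barcoded by well and sequenced. The authors deposited counts of UMIs per gene and well, not normalized; the submitters' processing notes name the mm10 build, featureCounts from Subread 1.4.6-p1, and STAR 2.5.2b. The sources used here do not give strand use or how reads shared between genes were counted. Each well's cell type came from the deposited well reports, whose Type number the labels explain. Spike-in counts (0.752, 0.690 and 0.646% on plates 1, 2 and 3) were left out, and no doublet caller was run. GENCODE M21 named 28682 of 29267 identifiers.

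Wells with at least 1000 genes and under 20% mitochondrial UMIs were kept (4413 of 4610) and summed per plate and cell type. edgeR 4.0.16 in R 4.3.3 fitted the 9 sums by quasi-likelihood with TMM scaling, its low-count filter, and cell type and plate as terms; p-values were BH-adjusted over 17119 genes, threshold 0.05. DESeq2 1.42.0 was an alternative. The plate number pairs the samples because each plate is 1 chip; deviations of same-plate sums correlated at 0.0782 to 0.141, those of different plates at -0.101 to 0.00858. On simulated counts for deletion against control, 42% of 100 genes changed 1.5-fold and 81% of 100 changed 2-fold were called among 17119. The changed genes averaged at least 10 CPM, and the simulation held no plate effect. Nid1, at 9.48 CPM, lay below that level, so these shares do not give the power for each member. For shares and joint values, wells were thinned once to 5869 UMIs. Intervals are exact Clopper-Pearson 95% intervals. Other genes were named by rule: the called genes of a list, otherwise the 2 with the smallest p in any comparison; and, among genes with a UMI in at least 2% of thinned wells, the 10 genes most like the members across wells. The members and lists were chosen with earlier results of these data known.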

Additional observations from a re-analysis of the deposited data

How the results depend on the processing

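Over inhibited against control, deleted against control and inhibited against deleted cells, edgeR with plate as the block called 1, 6 and 53 of all genes. Without the replicate block it called 0, 0 and 3. DESeq2 called 277, 334 and 734, the unfiltered table gave 108, 179 and 383, and wells thinned to equal depth gave 76, 61 and 161. Leaving out the deepest wells gave 31 for inhibited against deleted cells, and leaving out 1 plate gave 0 to 0, 1 to 5 and 0 to 73. Members called were 1 for inhibited against control and 3 for inhibited against deleted cells with DESeq2, and 3 for inhibited against deleted cells with no filter. The adjusted p over all alternatives ran from 0.000338 to 0.516 for Col4a1, 0.011 to 0.594 for Col4a2 and 0.00411 to 0.487 for Nid1 (inhibited against deleted), and from 0.0387 to 0.985 for Spp1 (inhibited against control).

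Some small differences changed sign. For inhibited against control cells these were Lama1 (0.212 to -0.569 over plates left out, 0.155 at equal depth, 0.0552 without the deepest wells), Lamc1 (-0.299 to 0.0885) and Lama5 (-0.163 to 0.0415, 0.0436 at equal depth, 0.0046 without the deepest wells). For deleted against control cells they were Lamb1 (-0.312 to 0.0769, above 0 without plate 1 or 2), Nid1 (-0.0812 without plate 2 to 0.738), Lama5 (-0.0771 without plate 3) and Col4a1 (-0.109 without plate 3 to 0.955). For inhibited against deleted cells they were Spp1 (-0.104 to 0.10 over plates left out, 0.0060 without the deepest wells) and Lamb1 (0.10 at equal depth, 0.0538 without the deepest wells). The cause was not tested. The difference in members per well was -0.248, -0.047 and -0.201 at 12724 UMIs, -0.240 for inhibited against control at 4089 UMIs, and -0.138 (inhibited against control) and -0.062 (inhibited against deleted) when at least 2 UMIs were asked. The Col4a1 and Col4a2 r was 0.22 by Spearman and 0.44 without thinning. Members found in few wells limit what shares can show, and 3 plates cannot give a permutation p under 0.25. With each member weighted alike, an alternative chosen after seeing the data, 8 of the 10 genes most like the members were shared with the ranking given.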
